A study of Mus musculus with 12 samples.

Results

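The genes of cholesterol synthesis, uptake control and efflux were followed in trigeminal ganglia of mice, as a set of 31 genes named by symbol and found by their Ensembl identifiers among the 51341 genes of the deposited table. They comprise 8 enzymes of the mevalonate and isoprenoid steps, 11 enzymes of the squalene and sterol steps, 5 genes of sterol sensing and 7 genes of transport, uptake control and efflux. All 31 were in the table. The ganglia came from 12 CD1 mice, an outbred stock, of which 6 had responded to the neuropeptide PACAP and 6 had not. Each group held 3 males and 3 females, each library was its own mouse, and the labels name no allele, no age and no agent other than PACAP. The sources used here state neither how a response was scored nor when PACAP was given. The description of each sample opens with a number of unstated meaning, 44, 45, 48 or 49 in responders and 68, 82 or 83 in nonresponders. No number is shared between the groups, so that it cannot be told apart from the response.

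Cells build cholesterol from acetyl-CoA by way of mevalonate, farnesyl diphosphate, squalene and lanosterol. When sterol is scarce in the endoplasmic reticulum, the escort protein SCAP carries the SREBP transcription factors to the Golgi for cleavage, and they switch on the synthesis genes, while INSIG proteins hold the complex back when sterol is plentiful. Surplus cholesterol yields oxysterols that activate the LXR receptors, which raise the exporters ABCA1 and ABCG1, SREBP-1 and the ubiquitin ligase MYLIP. In peripheral nerve, Schwann cells make most of the cholesterol of their myelin themselves.

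Levels are FPKM, which corrects fragment numbers for the length of a gene and for depth, so that they can be compared between genes. Total FPKM per mouse ran from 286388 to 358590. The most common step in the values of single-exon genes implied between 17500000 fragments in responder 1 and 39000000 in nonresponder 4. This depth is rough, since 21.6% to 30.2% of small values lay within 0.05 of a whole step, where chance gives 10%. Ganglion markers were plentiful in both groups, with the summed level of 10 sensory neuron genes between 3019 and 6248 FPKM and that of 12 myelinating Schwann cell genes between 2111 and 5852. Responder 1 also held the highest score of pituitary genes, and nonresponder 4 the highest of neutrophil genes. Beside some of the results the value with both mice left out is given.

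Responders had lower values of several synthesis enzymes and higher values of the efflux genes Abca1 and Abcg1 and of Srebf1, but none of these differences passed the adjustment over all genes. Hmgcs1, which makes the precursor of mevalonate, averaged 113 ± 19.7 FPKM over the 6 responders and 161 ± 28.5 over the 6 nonresponders (mean ± SD, as in all such pairs of values). Nsdhl, a sterol dehydrogenase, stood at 19.1 ± 2.70 and 23.3 ± 2.87 FPKM. Abca1 stood at 12.3 ± 1.054 and 9.83 ± 1.41 FPKM, Abcg1 at 26.2 ± 1.85 and 21.8 ± 1.88, and Srebf1 at 29.3 ± 3.04 and 24.8 ± 2.71. On the log2(FPKM + 1) scale, limma with sex as a covariate tested 14203 genes, 29 of the 31 among them, and called 0 of the 29 at an adjusted p of 0.05, where 3 of all genes (0.0211%) were called. At an unadjusted p under 0.05 there were 5 of the 29, the genes just named, against 7.4% of all genes. That count was 3 without nonresponder 1 and 3 without nonresponder 6, and 3 after averaging mice that share the first number of the description.

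Of the 29 genes, 18 were lower in responders and 11 higher, and 49.3% of all genes were lower. The median log2 fold change was -0.08, against 0.003 over all genes. Of the 18 synthesis enzymes tested, 12 were lower, with a median of -0.15. The 8 mevalonate and isoprenoid enzymes had 5 lower (median -0.15) and the 10 squalene and sterol enzymes 7 lower (median -0.17). Among the 5 sterol sensing genes 3 were lower (median -0.07), and among the 6 tested genes of transport and efflux 3 were lower (median 0.02). The 2 genes left out by the filter on low values were Ebp, a sterol isomerase listed between 0.269 and 1.03 FPKM, and Mylip, listed between 0 and 0.214. Mylip had the lowest mean level of the set and Hmgcs1 the highest. In these whole ganglia, fewer cells of a type and less RNA per cell cannot be told apart.

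**Figure D1:**
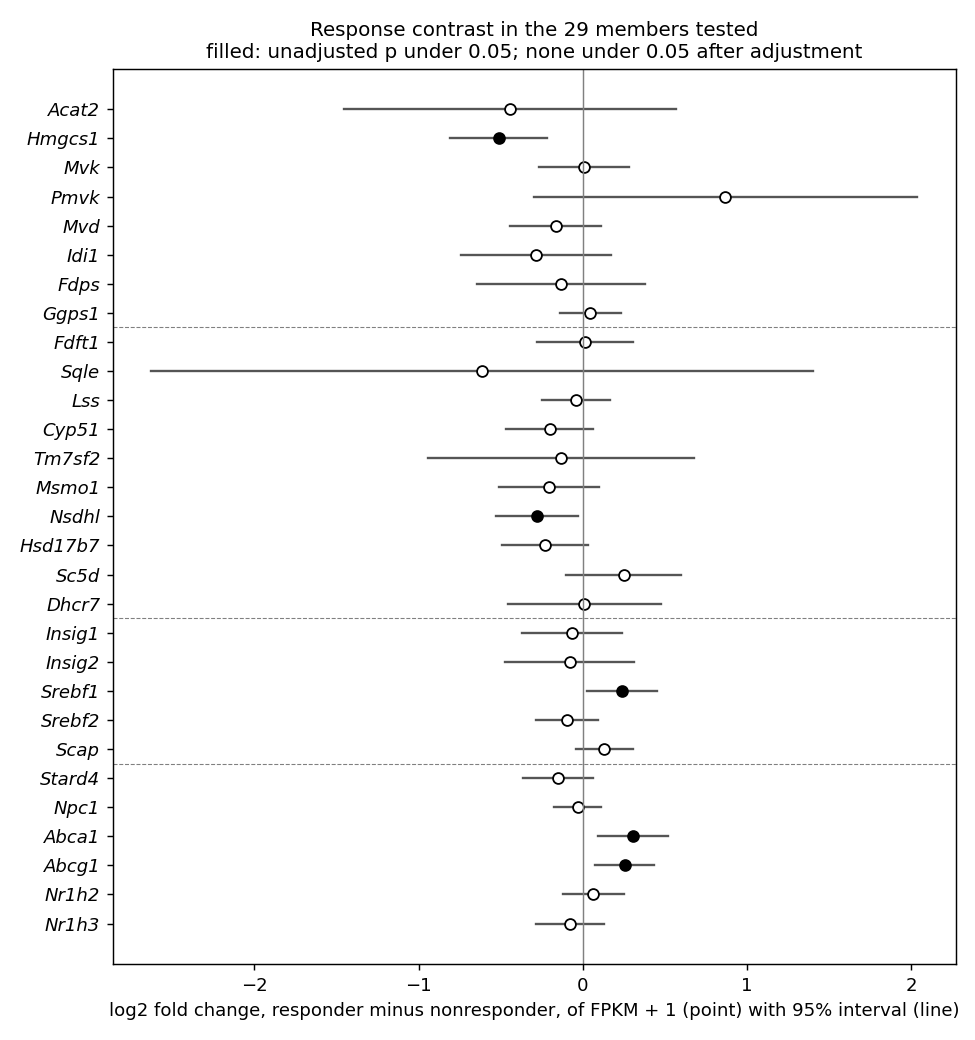
Log2 fold change of FPKM + 1, responder minus nonresponder, with its 95% interval, for the 29 genes tested, in the order of the pathway with dashed lines between the roles; filled points had an unadjusted p under 0.05. Hmgcs1 and Nsdhl lie to the left of 0 and Srebf1, Abca1 and Abcg1 to the right, while Acat2, Pmvk and Sqle have the widest intervals.

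The mevalonate steps held the most abundant transcript of the set. Hmgcs1 (ENSMUSG00000093930, chr13:119690379-119708260 of GRCm38, plus strand) ranged between 76.0 and 131 FPKM in responders, with a median of 117, and between 122 and 205 in nonresponders, with a median of 160.5. Responder 1 was the lowest mouse and nonresponder 3 the highest, and the groups overlapped, since nonresponder 4 at 122 lay below responders 2, 4 and 6. The log2 fold change was -0.51 (SE 0.13, limma unadjusted p = 0.0028, adjusted p = 0.445). It was -0.42 without responder 1 and -0.48 with both responder 1 and nonresponder 4 left out. The antisense gene Gm48342, which overlaps Hmgcs1 over 6190 bases, was listed between 0.957 and 5.18 FPKM, and the sources used here do not say whether reads were assigned by strand.

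The other enzymes of the mevalonate and isoprenoid steps were lower in level than Hmgcs1. Mvk, the mevalonate kinase, averaged 13.0 ± 1.85 FPKM in the responders and 12.9 ± 1.94 in the nonresponders, and Mvd, the decarboxylase that ends the mevalonate steps, 14.6 ± 2.596 and 16.5 ± 2.31. Ggps1, the geranylgeranyl diphosphate synthase, was among the steadiest enzymes, at 20.5 ± 1.51 and 19.9 ± 2.10 (coefficient of variation within groups 9.05%). Fdps, the farnesyl diphosphate synthase, spanned 31.3 to 58.7 FPKM in responders against 28.8 to 71.2 in nonresponders, with both extremes in nonresponder males. Idi1, which isomerises isopentenyl diphosphate, spanned 18.8 to 31.6 and 16.4 to 43.0 FPKM, with nonresponder 5 the lowest and nonresponder 1 the highest. Its log2 fold change was -0.29 (unadjusted p = 0.192), and with its processed pseudogene Gm13502 added it was -0.38 (unadjusted p = 0.038, limma adjusted p = 0.641). Gm13502 matches Idi1 at 100% over 684 bases and was listed between 11.2 and 24.7 FPKM, and reads may have been assigned to either one.

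Acat2 was uneven between mice in both groups, and Pmvk in nonresponders. Acat2, the cytosolic thiolase of the first step, was listed at 48.9 and 43.5 FPKM in responders 4 and 5 and between 11.1 and 16.1 in the other responders. In nonresponders it was listed at 54.8, 41.3 and 50.3 FPKM in mice 2, 4 and 6 and between 14.7 and 21.3 in the others. The high and the low mice fell in both groups and both sexes. Acat2 matches Acat3 at 97.7% over 1477 bases and Tcp1 at 98.7% over 445, which makes its value uncertain, and with Acat3 added its log2 fold change went from -0.44 to -0.34. It was -0.17 with responder 1 and nonresponder 4 left out. Pmvk, the phosphomevalonate kinase, was listed between 17.3 and 26.3 FPKM in responders and at 19.0, 21.7, 9.42, 28.7, 11.4 and 0.874 in nonresponders 1 to 6, so that nonresponders 3, 5 and 6 lay below every responder.

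Of the 11 squalene and sterol enzymes, Fdft1, Lss, Cyp51, Msmo1 and Nsdhl had the smallest spread within groups, with coefficients of variation from 12.3% for Lss to 20.8% for Msmo1. Fdft1, the squalene synthase, averaged 36.7 ± 2.96 FPKM in the responders and 36.9 ± 8.15 in the nonresponders, and Lss, the lanosterol synthase, 7.27 ± 0.484 and 7.56 ± 1.20. Cyp51, the lanosterol demethylase, had 24.5 ± 4.17 and 28.2 ± 3.84, and Msmo1, the methylsterol oxidase, 4.22 ± 0.691 and 5.07 ± 1.18. Nsdhl (ENSMUSG00000031349, chrX:72918557-72958514, plus strand) works after Msmo1 in the removal of methyl groups from the sterol ring. It lay between 14.7 and 22.5 FPKM in responders (median 19.0) and between 19.6 and 26.4 in nonresponders (median 23.9). Responder 1 was again the lowest, and responders 4, 5 and 6 lay within the range of the nonresponders. The log2 fold change of Nsdhl was -0.28 (SE 0.11, unadjusted p = 0.032, limma adjusted p = 0.640). It was -0.21 without responder 1 (limma unadjusted p = 0.063) and -0.25 without nonresponder 5 (limma unadjusted p = 0.070). With both responder 1 and nonresponder 4 left out it was -0.24 (limma unadjusted p = 0.037).

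Hsd17b7, Dhcr7 and Sc5d were listed at low levels, and Tm7sf2 was uneven between mice. Hsd17b7, the reductase that acts with Nsdhl, averaged 1.07 ± 0.233 FPKM in the responders and 1.44 ± 0.378 in the nonresponders, and Dhcr7, a reductase of the last steps, 2.88 ± 0.990 and 2.85 ± 1.04. Sc5d, the sterol desaturase, reached 1 FPKM in 3 mice, responders 1 and 2 at 1.79 and 2.22 and nonresponder 5 at 1.008, and was listed between 0.294 and 0.920 in the others. Tm7sf2, a sterol reductase, fell into a low and a high range in both groups: it was listed at 3.87 and 3.22 FPKM in responders 2 and 3 and at 3.43 and 2.69 in nonresponders 1 and 3, against 8.29 to 12.1 in the other mice. It overlaps Vps51 on the same strand over 532 bases, and Vps51 was listed between 2.97 and 14.3 FPKM.

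Sqle, the squalene epoxidase, showed the widest gap of the set. It was listed at 30.9 FPKM in responder 5, 22.7 in nonresponder 1 and 19.4 in nonresponder 6, and between 0.101 and 0.302 in the other 9 mice. The 3 high mice were females and the other 3 females were low with the 6 males. They were also all the mice whose description opens with 45 or 83. On the log2(FPKM + 1) scale the gap between the low and the high mice was 3.97, and 7 of the 14203 genes (0.0493%), Sqle included, had a gap of at least that size between neighbouring mice. Fdft1 and Lss, which act just before and just after Sqle, showed no such gap, with 28.2 to 50.3 and 6.17 to 9.62 FPKM over all mice. Of all genes in the fit, 18% had a highest mouse at least 5 times the lowest.

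**Figure D2:**
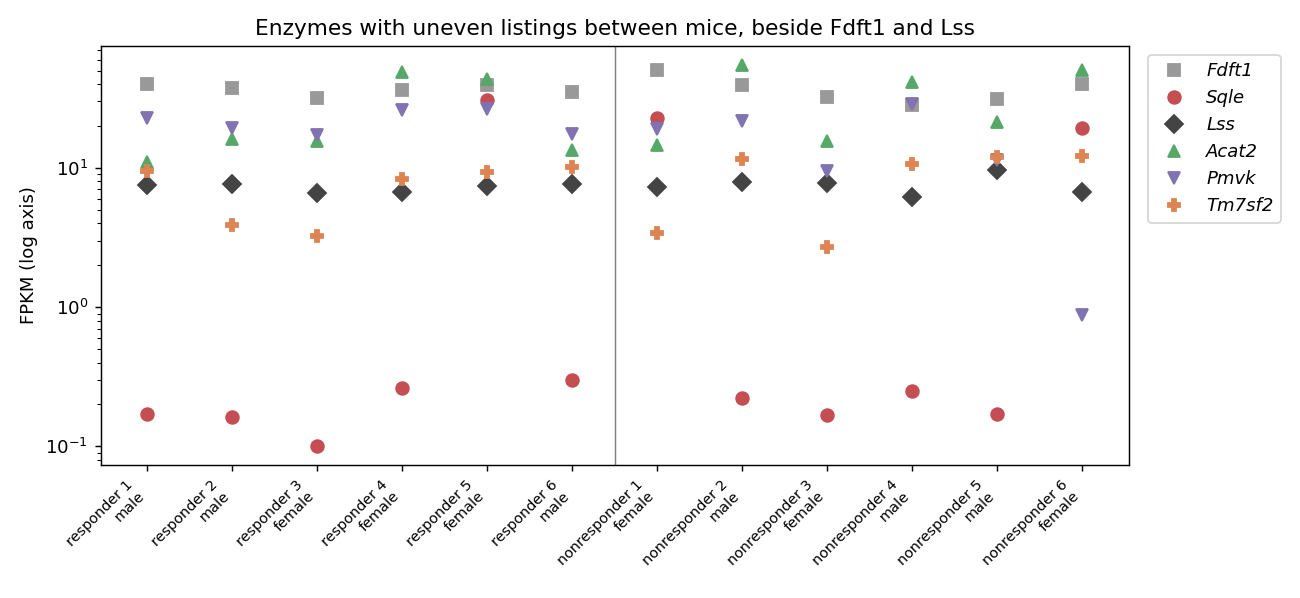
FPKM on a log axis in each of the 12 mice for the 4 enzymes with uneven values, Sqle, Acat2, Pmvk and Tm7sf2, beside Fdft1 and Lss, which act before and after Sqle. Sqle lies near Fdft1 in responder 5 and nonresponders 1 and 6 and at or below 0.302 in the other mice, and Pmvk drops to 0.874 in nonresponder 6.

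The genes of sterol sensing were mostly well expressed. Srebf2, which encodes the SREBP of cholesterol synthesis, lay between 34.3 and 46.0 FPKM in responders (median 37.3) and between 35.2 and 43.3 in nonresponders (median 41.7). Responder 5 was the highest of all mice and the groups overlapped. Srebf1, which encodes the SREBP of fatty acid synthesis and is an LXR target, lay between 25.4 and 34.4 FPKM in responders (median 29.2) and between 21.7 and 28.7 in nonresponders (median 23.8). Responder 5 was the highest again, and nonresponders 2 and 3 lay within the range of the responders. The log2 fold change was -0.10 for Srebf2 (unadjusted p = 0.274) and 0.24 for Srebf1 (SE 0.10, unadjusted p = 0.033, limma adjusted p = 0.640). For Srebf1 it was 0.22 with responder 1 and nonresponder 4 left out (unadjusted p = 0.074, limma adjusted p = 0.631). Scap, the escort of both SREBPs, averaged 22.4 ± 2.05 FPKM in the responders and 20.4 ± 1.35 in the nonresponders.

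Within a mouse, Srebf2 stood closer to Srebf1 in responders than in nonresponders. The log2 ratio of Srebf2 to Srebf1, taken on FPKM + 1, averaged 0.36 ± 0.06 in the 6 responders and 0.69 ± 0.19 in the 6 nonresponders, a difference of -0.33. It was above 0 in 12 of 12 mice, and the groups did not overlap, with responders between 0.28 and 0.42 and nonresponders between 0.48 and 0.94. The exact permutation test gave p = 0.00216, 2-sided, and 0.00649 after adjustment over the 3 gene pairs tested. This is the smallest p it can give for 6 against 6 mice, and any pair whose groups do not overlap gives it. The share of other gene pairs with no overlap was not determined, and the 3 pairs were chosen with earlier results of these data known. Averaged over the 7 first numbers of the descriptions, the difference was -0.32 with an exact p of 0.0571, which is the smallest that 4 against 3 values can give. The ratio averaged 0.87 in the mice numbered 83, 0.62 in those numbered 82 and 0.54 in the mouse numbered 68.

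The INSIG pair was low in level, and the groups overlapped in its ratio. Insig1 lay between 0.559 and 1.16 FPKM in responders (median 0.738) and between 0.174 and 1.20 in nonresponders (median 1.04), with nonresponder 3 far below the rest. Insig2 lay between 1.63 and 3.46 FPKM (median 2.29) and between 1.61 and 3.69 (median 2.55), and the groups covered nearly the same range. The log2 ratio of Insig1 to Insig2 averaged -0.89 ± 0.26 in the responders and -0.90 ± 0.53 in the nonresponders (exact permutation p = 0.961). It was below 0 in every mouse.

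**Figure D3:**
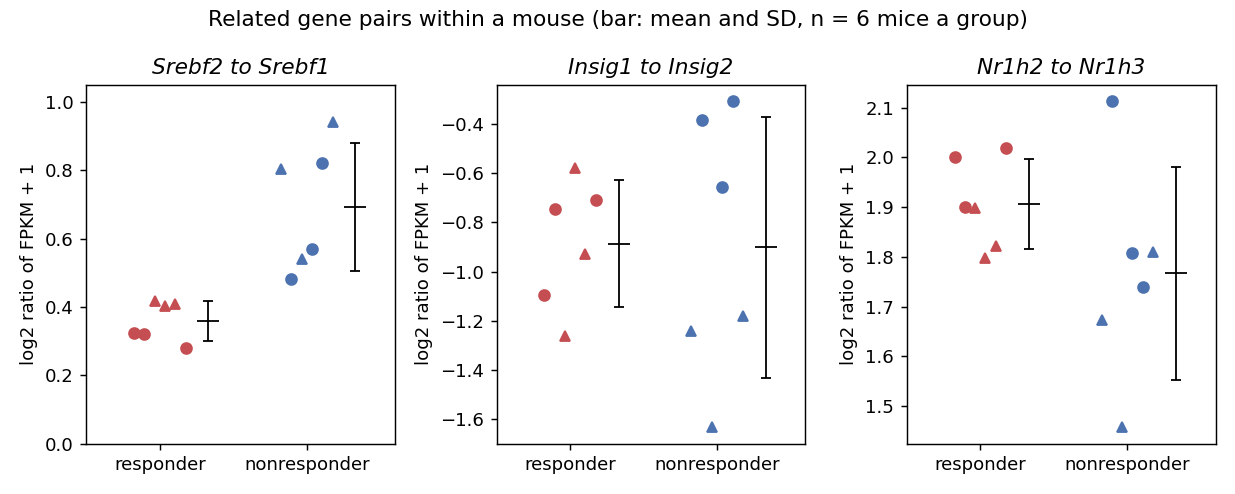
Log2 ratio of FPKM + 1 for 3 pairs of related genes in each mouse, with responders in red and nonresponders in blue, males as circles and females as triangles, and the mean and SD of each group (n = 6) beside them. The Srebf2 to Srebf1 ratio is at or below 0.42 in the responders and at or above 0.48 in the nonresponders, while the groups overlap for the other pairs.

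The efflux genes had higher values in responders. Abcg1 (ENSMUSG00000024030, chr17:31057675-31117988, plus strand), an exporter of cholesterol to lipoprotein particles, lay between 24.3 and 29.5 FPKM in responders (median 25.7) and between 18.4 and 23.3 in nonresponders (median 22.4). It was the 1 gene of the 29 whose groups did not overlap, against 0.549% of all genes tested. The extremes were responder 1 and nonresponder 4, and without both the log2 fold change was 0.17, against 0.25 over all mice (SE 0.08, unadjusted p = 0.0098, limma adjusted p = 0.558). Abca1 (ENSMUSG00000015243, chr4:53030787-53159895, minus strand), which loads cholesterol onto lipid-poor apolipoproteins, lay between 10.99 and 14.2 FPKM in responders (median 12.2) and between 8.57 and 12.6 in nonresponders (median 9.40). Nonresponder 3 was above 5 of the 6 responders, and the other 5 nonresponders were below every responder. The log2 fold change of Abca1 was 0.30 (SE 0.10, unadjusted p = 0.0095, limma adjusted p = 0.553) and 0.38 without nonresponder 3 (unadjusted p = 0.000428, limma adjusted p = 0.245). It was 0.27 without nonresponder 1 (unadjusted p = 0.025) and 0.24 after averaging by description number (unadjusted p = 0.102, limma adjusted p = 0.688).

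The LXR receptor genes themselves were close between the groups. Nr1h2, which encodes the widely expressed LXR beta, lay between 19.2 and 25.4 FPKM in responders (median 22.5) and between 19.9 and 22.8 in nonresponders (median 21.6). Nr1h3, which encodes LXR alpha, lay between 4.41 and 6.47 (median 5.18) and between 4.50 and 6.69 (median 5.52). The groups overlapped for both genes, and the log2 ratio of Nr1h2 to Nr1h3 was 1.91 ± 0.09 and 1.77 ± 0.21 (exact permutation p = 0.178, 0.266 after adjustment over 3 pairs). Without nonresponder 2 the difference went from 0.14 to 0.21, with an exact permutation p of 0.013. Of the carriers inside the cell, Stard4, which moves sterol through the cytosol, stood at 11.96 ± 1.32 and 13.4 ± 1.40 FPKM, and Npc1, which exports cholesterol from late endosomes, at 15.2 ± 1.11 and 15.6 ± 1.29.

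**Figure D4:**
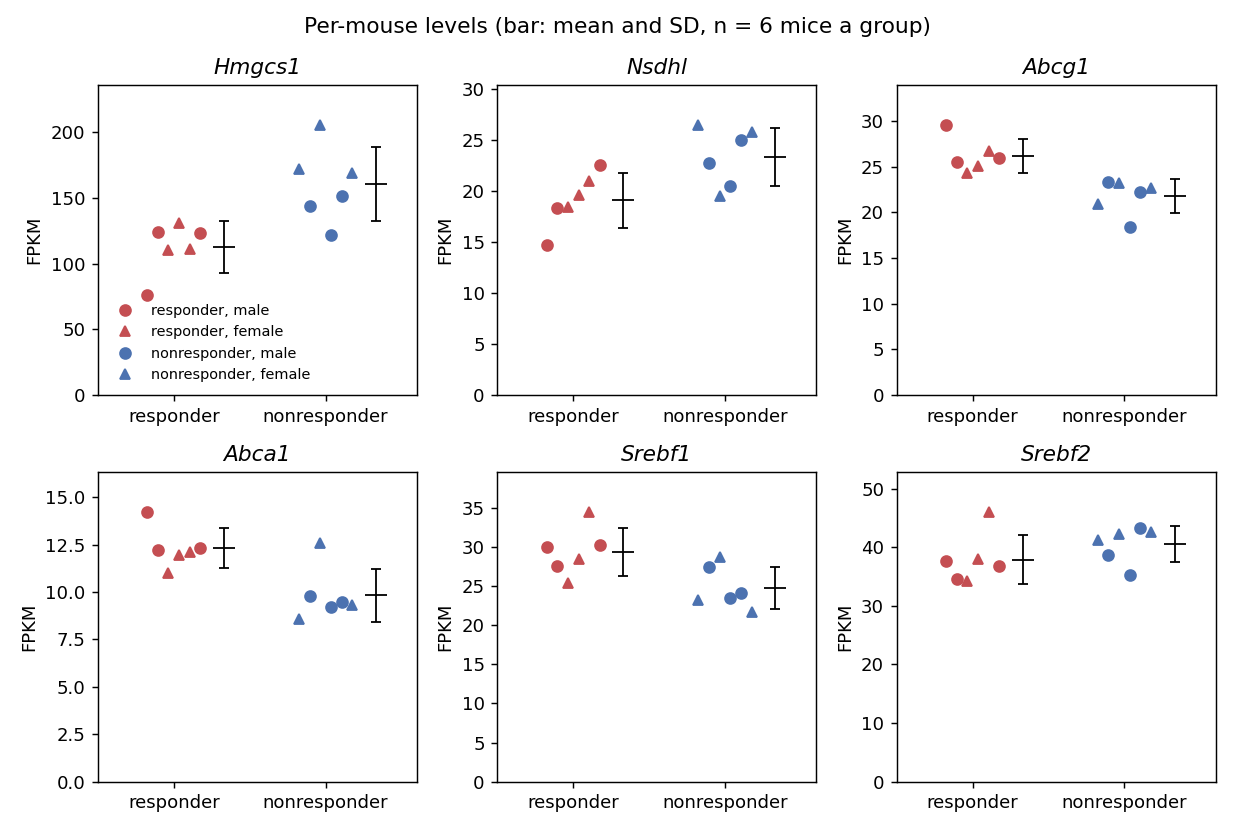
FPKM in each mouse for the 5 genes with an unadjusted p under 0.05 and for Srebf2, with responders in red and nonresponders in blue, males as circles and females as triangles, and the mean and SD of each group (n = 6). Hmgcs1 and Nsdhl lie lower in responders with overlap, and Abcg1 is at or above 24.3 in responders and at or below 23.3 in nonresponders.

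The windows of 250 bases before the annotated start were read from RefSeq for GRCm38.p6, which held 25 of the 31 genes (not Fdps, Fdft1, Sqle, Stard4, Npc1 and Abcg1). They are shown for Hmgcs1 and Nsdhl, the enzymes with lower values, and for Abca1, the exporter with higher values. Capitals mark matches on either strand to TCACNCCAC (the sterol regulatory element that SREBPs bind), CCAAT (the NF-Y box), GGGCGG (the Sp1 box) or the direct repeat that LXR binds with RXR.
Hmgcs1 (chr13:119690101-119690350, plus strand): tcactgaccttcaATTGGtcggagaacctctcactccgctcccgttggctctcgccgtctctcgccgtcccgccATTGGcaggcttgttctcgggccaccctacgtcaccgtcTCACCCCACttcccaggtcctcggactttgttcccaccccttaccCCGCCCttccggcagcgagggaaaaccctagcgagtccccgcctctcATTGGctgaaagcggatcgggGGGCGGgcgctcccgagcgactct
Nsdhl (chrX:72918271-72918520, plus strand): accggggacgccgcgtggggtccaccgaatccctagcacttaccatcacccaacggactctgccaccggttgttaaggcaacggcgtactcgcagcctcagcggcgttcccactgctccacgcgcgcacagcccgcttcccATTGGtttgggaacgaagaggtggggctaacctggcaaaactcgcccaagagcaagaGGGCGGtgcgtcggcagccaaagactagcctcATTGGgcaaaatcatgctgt
Abca1 (chr4:53159896-53160145, minus strand): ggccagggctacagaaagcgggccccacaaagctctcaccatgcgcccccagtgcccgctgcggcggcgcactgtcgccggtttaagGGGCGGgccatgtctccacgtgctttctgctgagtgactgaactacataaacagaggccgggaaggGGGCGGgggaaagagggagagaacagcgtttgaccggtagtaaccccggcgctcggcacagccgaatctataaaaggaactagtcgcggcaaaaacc
TCACNCCAC was found in the Hmgcs1 window alone of the 25, on its plus strand and starting 137 bases before the start (4% of the genes, against 1.22% of 27025 genes in the table). Other spellings of the sterol element were not searched, so the other windows may hold one. CCAAT was in 20 of the 25 genes (80%), against 37.5% of all genes and 40.4% of those that entered the fit. GGGCGG was in 21 (84%), against 35.4% and 63.1%. The exact LXR repeat was in 0 of the 25, in 0.0148% of all genes and in 0% of those that entered the fit. A string this rare could hardly have been found, and LXR sites that depart from it were not searched. Its absence therefore does not show that a window, that of Abca1 included, lacks an LXR site. A match describes these letters only.

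**Figure D5:**
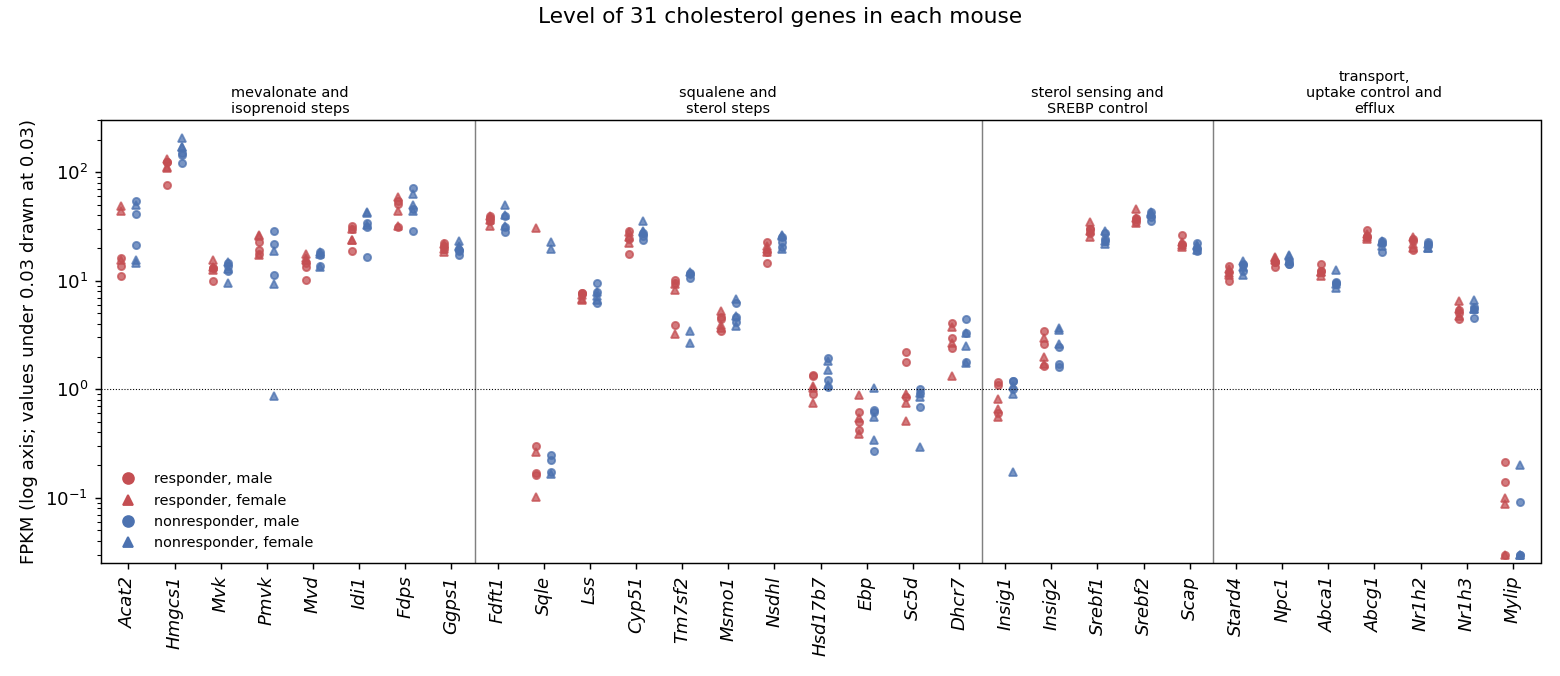
FPKM on a log axis of the 31 genes in each mouse, grouped by role, with responders in red and nonresponders in blue, males as circles and females as triangles. Hmgcs1 lies highest and Mylip lowest, Sqle splits into 3 high and 9 low mice, and the dotted line marks 1 FPKM, the level of the filter.

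The response contrast was also taken within each sex, and its difference between the sexes tested. Among responders the roughly implied depth was higher in females (32900000 to 37600000 fragments) than in males (17500000 to 23100000). Among nonresponders the sexes overlapped, with females at 22400000 to 28700000 and males at 23000000 to 39000000. The part of depth in these contrasts and in that between the sexes was not tested. Of the 29 genes, 0 were called within males or within females, where limma called 2 (0.0141%) and 1 (0.00704%) of all genes. At an unadjusted p under 0.05 there were 3 in males (6.78% of all genes) and 2 in females (6.81%). With 1 mouse left out, the count in males ran from 2 (without responder 1 or nonresponder 2) to 5 (without responder 2 or responder 6). In females it ran from 1 (without responder 4, responder 5 or nonresponder 6) to 4 without responder 3 or nonresponder 5 and 5 without nonresponder 3. With both responder 1 and nonresponder 4 left out it was 0 of 28 in males (4.51% of all genes) and 4 of 28 in females (13.7%). Over all mice, the genes in males were Abca1 (log2 fold change 0.40), Abcg1 (0.33) and Acat2 (-1.38), and in females Hmgcs1 (-0.63) and Pmvk (1.70). Hmgcs1 was lower in responders of both sexes, by -0.40 in males. The interaction called 0 of the 29 and 0 of all genes, with 711 of all genes (5.01%) at an unadjusted p under 0.05. Acat2 was the 1 gene of the set among those, with log2 fold changes of -1.38 in males and 0.49 in females (unadjusted p of the interaction 0.035, limma adjusted p = 0.836).

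Between the sexes, with the response group as a covariate, 0 of the 29 genes were called and 8 of all genes (0.0563%). At an unadjusted p under 0.05 there were 3, against 4.53% of all genes. Among them, Sqle and Sc5d each reached 1 FPKM in 3 mice, the fewest that the filter admits. These mice were all female for Sqle and all male for Sc5d. Both genes thus entered the fit only through the sex in which they are high, so their p values and this count are no evidence of a sex difference. Npc1 was higher in females, between 15.29 and 17.2 FPKM with a median of 16.3, than in males, between 13.5 and 15.32 with a median of 14.6 (log2 fold change 0.16, unadjusted p = 0.036, limma adjusted p = 0.864). The sexes overlapped by 1 mouse on each side, since nonresponder 1 was the lowest female and nonresponder 5 the highest male. Sc5d was lower in females, between 0.294 and 0.918 FPKM with a median of 0.799, than in males, between 0.692 and 2.22 with a median of 0.964 (log2 fold change -0.37, unadjusted p = 0.039). The high males were responders 1 and 2, and the ranges overlapped. The third was Sqle, with a log2 fold change of 2.16 (unadjusted p = 0.038) that comes from the 3 high females.

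Most markers of myelinating Schwann cells, like most of the synthesis enzymes, had lower values in responders, and 0 of either list were called. Of the 12 markers, 11 entered the fit, and 10 of these were lower in responders (median log2 fold change -0.41), 5 of them at an unadjusted p under 0.05 (smallest limma adjusted p = 0.308). Among the markers, Mal was listed at or below 0.623 in every mouse. The markers' summed level lay between 2111 and 4130 FPKM in responders and between 3923 and 5852 in nonresponders. Their mean log2 value over all 12, taken as a score, was 5.57 ± 0.37 and 5.96 ± 0.24. Responder 1 had the lowest score, 4.90, and nonresponder 1 the highest, 6.21. Fits on the score took it over the 11 markers that entered the fit, without Mal. With the response group and sex in the fit, the log2 slope per unit of the score was 0.52 for Nsdhl (unadjusted p = 0.0058, limma adjusted p = 0.232). It was 0.46 for Hmgcs1 (unadjusted p = 0.061, limma adjusted p = 0.357) and 0.80 for Fdps (unadjusted p = 0.060, limma adjusted p = 0.355), so that none passed the adjustment.

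Over the 29 genes the median slope on the Schwann cell score was 0.12 and over all genes -0.05, and 14 of the 18 synthesis enzymes had a slope above 0 (median 0.28), while 54.5% of all genes had one below 0. The test called 0 of the 29 and 0 of all genes, with 1 and 2121 (14.9%) at an unadjusted p under 0.05. Of all genes tested, 576 (4.11%) had such a p without responder 1, the mouse with the lowest score, and 714 (5.19%) without both responder 1 and nonresponder 4. It was 1356 (9.59%) without responder 6 and 3745 (26.5%) without nonresponder 2, where the test called 761 of all genes and 0 of the 29. With the score as a further covariate in the response comparison, 0 of the 29 genes had an unadjusted p under 0.05, against 6.51% of all genes. By limma the log2 fold change then was -0.32 for Hmgcs1 (unadjusted p = 0.055) and -0.06 for Nsdhl (unadjusted p = 0.538). It was 0.23 for Abca1 (unadjusted p = 0.083), 0.21 for Abcg1 (unadjusted p = 0.070) and 0.24 for Srebf1 (unadjusted p = 0.081). The score was itself lower in responders, so this fit cannot tell the part of the myelin markers from the response. That part was not tested.

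Markers of other cell types differed in level between the groups by varying amounts, and 0 were called by limma in each of these lists. At an unadjusted p under 0.05 there were 6 of 7 pituitary, 4 of 6 fibroblast, 2 of 2 tested fat markers, 1 each of the satellite glial, central glial and skeletal muscle markers, and 0 of the sensory neuron, endothelial, macrophage and neutrophil markers. The summed level of 6 fibroblast markers lay between 121 and 211 FPKM in responders and between 128 and 564 in nonresponders, with 5 of 6 lower in responders. All 7 pituitary markers had higher values in responders (median log2 fold change 2.94). The summed pituitary level lay between 359 and 77450 FPKM in responders (median 2438) and between 26.8 and 1053 in nonresponders. Responder 1 had the highest pituitary score, 9.94, and the highest total of all mice, 358590 FPKM. That mouse was also the lowest for Hmgcs1 and Nsdhl. The 10 sensory neuron markers differed little, with a median log2 fold change of 0.11 and 9 of 10 higher. Of 5 satellite glial markers 3 were lower (median -0.11), of 5 endothelial markers 4 (median -0.32) and of 6 tested macrophage markers 2 (median 0.05). All tested markers of central glia (4, median -0.76), fat (2, median -1.27, with Lep at 0 in every mouse), skeletal muscle (6, median -1.54) and neutrophils (6, median -1.77) had lower values in responders. Their part in the values of the cholesterol genes was not tested.

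With the response group and sex taken out, the synthesis enzymes varied together only loosely from mouse to mouse. The median Pearson correlation over the 153 pairs of the 18 enzymes was 0.21 (Spearman 0.17), against 0.01 over all pairs of genes in the fit and 0.70 over the pairs of Schwann cell markers. Without responder 1 the median was 0.16 over the enzymes and 0.45 over the Schwann cell markers (Pearson). The closest pairs were Mvk with Stard4 (0.93), Mvk with Msmo1 (0.92) and Mvd with Stard4 (0.91), and the most opposed was Hmgcs1 with Insig2 (-0.80). Next among the opposed pairs came Pmvk with Hsd17b7 (-0.73), Insig1 with Srebf1 (-0.72) and Mvk with Abca1 (-0.69). These pairs are the ends of 406 pairs of the 29 genes, and they were not taken again with a mouse left out. These are descriptions over 12 libraries, whose genes share depth and tissue make-up.

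Among 51 further genes of sterol and lipid metabolism, 47 entered the fit, 0 were called by limma, and 4 (8.51%) had an unadjusted p under 0.05, 2 in each direction, against 7.4% of all genes. A share this close to that of all genes is no result about the list, and the 4 are given by their values. Tmem97, a sterol-responsive membrane protein, averaged 7.02 ± 0.924 FPKM in the responders and 9.16 ± 1.011 in the nonresponders (log2 fold change -0.34, unadjusted p = 0.0049, adjusted p = 0.461). Elovl6, a fatty acid elongase and SREBP target, stood at 18.2 ± 2.48 and 24.1 ± 5.96. Dhdds, which makes dolichol from isoprenoids, had 31.1 ± 2.69 and 22.7 ± 6.22, and Lrp8, a lipoprotein receptor, 4.39 ± 0.849 and 3.42 ± 0.415. The 47 genes were evenly spread, with 25 higher, 22 lower and a median of 0.01.

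By group, 4 of 7 genes of SREBP processing and sterol-regulated degradation were higher in responders (median 0.01), and the smallest adjusted p among them by limma was 0.770. Of 8 isoprenoid-using genes 6 were higher (median 0.04), and of 10 genes of acetyl-CoA and fatty acid synthesis 7 were lower (median -0.05), with Scd1, a desaturase, at 109 ± 22.7 and 122 ± 14.0 FPKM. Storage and transfer genes had 7 of 10 higher (median 0.03), and the lipoprotein receptors 3 of 4 lower (median -0.15), among them Vldlr, at 7.12 ± 0.550 and 8.14 ± 1.08. The oxysterol enzymes had a median of 0.004, with the neuronal cholesterol hydroxylase Cyp46a1 at 5.91 ± 2.23 and 6.05 ± 1.40 FPKM. Of the 4 tested LXR partners and targets 3 were lower (median -0.10), including Lpcat3, a phospholipid remodelling enzyme, at 3.61 ± 0.811 and 5.14 ± 1.61 (unadjusted p = 0.056, limma adjusted p = 0.678).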

How the data were processed

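The authors deposited 1 table of 51341 Ensembl genes by 12 mice. Its unit is not named in its header and was taken from the values as FPKM, made with STAR 2.6.0a and StringTie 1.3.5 on GRCm38 (mm10), per the submitters' processing notes. The sources used here do not give the annotation release, settings or filters. Libraries were poly A selected and sequenced as 150 base paired ends, per the labels. Whole reads could not be recovered, so no count test and no counting interval were made, and precision differs with depth. Symbols and coordinates came from GENCODE M21, which held 51076 of the identifiers.

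Log2(FPKM + 1) was fitted with limma 3.58.1 in R 4.3.3 (no trend, not robust) over the 14203 genes that reached 1 FPKM in 3 or more mice. Fold changes on this scale understate the change of low genes. Adjusted p values are 2-sided Benjamini-Hochberg values over all genes tested. The sex-specific contrasts and the interaction used 4 cell means over all mice. Gene pair ratios used exact permutation tests over all splits of the mice. Near copies were sought with blastn 2.17.0 (at least 90% identity over at least 400 bases). The fit was tested on simulated data with independent noise in each gene. The changes put in were larger than the log2 fold changes of Hmgcs1, Nsdhl, Abca1, Abcg1 and Srebf1. Changes as small as theirs, and a tissue make-up shared between genes, were not simulated.

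The members, lists and tests were chosen with earlier results of these data known. All 31 genes are named; other genes of the pathway are named as the 3 of each list with the smallest p. Alternatives covered the pseudocount, filter, scaling, limma trend, array weights, covariates, replicate block, averaging by description number and each mouse left out; near copies summed, both outlying mice left out and ratios averaged by number were added after the data were seen. Some genes of the pathway are not reported here.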

Additional observations from a re-analysis of the deposited data

Results flagged for a closer look

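In 4 of the 62 groups of 6 mice examined (31 genes in responders and in nonresponders), 1 mouse stood far from the other 5 by Dixon's criterion, which sets the gap to the nearest mouse against the group's range. Chance flags about 1 in 20 groups. In responders, Sqle stood at 30.92 FPKM in responder 5, against 0.1006 to 0.3023 in the others. The same mouse stood apart for Srebf2, at 46 FPKM against 34.28 to 38.01. In nonresponders, nonresponder 3 was the mouse that stood apart for both genes concerned. Its Insig1 was 0.1736 FPKM, against 0.905 to 1.2 in the others, and its Abca1 was 12.59 FPKM, against 8.567 to 9.801.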

How the results depend on the processing

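In the response comparison, the contrasts within sexes, the interaction, the sex contrast and the slope on the Schwann cell score, 0 of the cholesterol genes were called under each alternative that was run. Over the 23 alternatives of the response comparison, adjusted p ran from 0.174 to 0.707 for Hmgcs1 (log2 fold change -0.59 to -0.32), from 0.245 to 0.789 for Abca1 (0.23 to 0.38), from 0.288 to 0.773 for Abcg1 (0.17 to 0.28), from 0.307 to 0.84 for Nsdhl (-0.34 to -0.06) and from 0.372 to 0.849 for Srebf1 (0.18 to 0.29). The number of these genes at an unadjusted p under 0.05 ran from 0, with the Schwann cell score as covariate, to 6.

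Counts over all genes moved more. The response comparison called 3 genes, and 2 to 6 with 1 mouse left out (5 without responder 2, 6 without responder 5 and 6 without responder 6). Averaging by description number left 1 call. Males had 2 calls, 1 to 5 with 1 mouse left out, 4 at a pseudocount of 0.1 and 1 without both responder 1 and nonresponder 4. Females had 1 call, 1 to 5 with 1 mouse left out, 5 with no filter on low values and 3 without both mice. The interaction had 0 calls (711 at an unadjusted p under 0.05), 0 to 3 with 1 mouse left out. The slope had 0 calls, 1 at a pseudocount of 0.1 and 0 to 761 with 1 mouse left out, the 761 without nonresponder 2. The Srebf2 to Srebf1 difference was -0.324 (exact p = 0.0571) when averaged by number, where 7 values replace 12 and no smaller p is possible, and -0.376 to -0.284 with 1 mouse left out. The Nr1h2 to Nr1h3 difference was 0.078 to 0.209 with 1 mouse left out. Array weights did not converge for the 4 cell means and were not run there. The cause of these shifts was not tested, other than the loss of values where mice were averaged.

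The replicate numbers did not pair the mice: deviations of mice with the same number correlated between -0.250 and 0.241, and no mouse correlated best with its own number. With the replicate number as a block, the response comparison called 1 gene and the sex contrast 5 in place of 8, with 6 to 9 when 1 mouse was left out. The blocked difference of the Srebf2 to Srebf1 ratio was -0.334 (exact p = 0.0312). The roughly implied depth differed about as widely within groups as between them. Values near or below 1 FPKM, such as those of Insig1, Sc5d, Ebp and Mylip, rest on few fragments.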
